A study of Mus musculus with 8 samples.

Results

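The guanylate-binding proteins (GBPs) were followed across 8 mouse cecal tumors as a family of 9 genes, Gbp2 to Gbp10, of 34586 gene symbols measured by RNA sequencing. The genes were chosen by name, as rows of the deposited table that carry these symbols, and with the tamoxifen against vehicle differences of these same libraries already known. Their own values in that comparison are therefore a description, and the calls given for them are no independent evidence of a difference. The tumors model the gastrointestinal stromal tumor (GIST), a sarcoma of the gut wall related to the interstitial cells of Cajal. All 8 came from C57BL/6 mice. Each carried 1 mutant copy of the Kit receptor gene (Kit V558Delta/+) and loxP sites in both copies of the transcription factor gene Etv1 (Etv1 flox/flox). Each also carried a tamoxifen-activated Cre at the broadly active Rosa26 locus (Rosa26 CreERT2/CreERT2), which is not specific to tumor cells. Of these, 4 are labelled vehicle and 4 tamoxifen. The sources used here do not state age, dose or duration of treatment. Both groups carry the same alleles, so effects of losing Etv1, of active Cre and of tamoxifen itself cannot be told apart. The labels do not say whether replicates are separate mice, so every p-value measures the spread between these samples only.

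GBPs are large GTPases of the dynamin superfamily. Interferon gamma, made mainly by T cells and natural killer (NK) cells, is their strongest inducer, acting in part through the transcription factor Irf1, and type I interferons also induce them. The proteins assemble on membranes of vacuoles that hold microbes and on bacteria in the cytosol, and they help to trigger inflammasomes, the complexes that activate inflammatory caspases. In gut and tumor tissue, many cell types, including epithelium, endothelium and macrophages, express them after exposure to interferon. In a bulk sample, fewer cells of a type and less RNA per cell cannot be told apart.

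The mouse genes lie in 2 clusters. In the mm9 coordinates of the deposited table, Gbp5, Gbp7, Gbp3 and Gbp2 lie in that order within 141 kb of chromosome 3 (142159864 to 142300972). Gbp8, Gbp9, Gbp4, Gbp10 and Gbp6 lie within 280 kb of chromosome 5 (105443172 to 105722718). Each member has 1 row in the table, none of the 72 values has a failed estimate, and no member's locus overlaps that of another gene in the table. The relatives Gbp1, on chromosome 3, and Gbp11, on chromosome 5, are in the table but are not members.

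Sequence upstream of the start site is shown because the sites that interferon-activated factors bind can be read there. Only chromosome 3 members are shown, since only these had a promoter window. RefSeq promoter windows (GRCm38.p6, a later build than that of the deposited table) matched 4 of the 9 members, namely Gbp2, Gbp3, Gbp5 and Gbp7. No window was matched for Gbp4, Gbp6, Gbp8, Gbp9 and Gbp10. Capitals mark matches, on either strand, to the core of the interferon-stimulated response element (ISRE, GAAANNGAAA, bound by interferon regulatory factors) and to the core of the gamma-activated sequence (GAS, TTCNNNGAA, found in promoters that respond to interferon gamma). Each sequence runs 5′ to 3′ on the plus strand and ends at the base before the gene's first annotated start.
Gbp5, chr3:142496684-142496933: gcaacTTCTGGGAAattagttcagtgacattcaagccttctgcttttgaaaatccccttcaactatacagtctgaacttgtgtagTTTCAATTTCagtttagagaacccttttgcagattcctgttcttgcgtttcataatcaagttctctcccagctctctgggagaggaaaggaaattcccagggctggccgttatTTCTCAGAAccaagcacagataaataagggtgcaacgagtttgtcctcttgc
Gbp7, chr3:142530086-142530335: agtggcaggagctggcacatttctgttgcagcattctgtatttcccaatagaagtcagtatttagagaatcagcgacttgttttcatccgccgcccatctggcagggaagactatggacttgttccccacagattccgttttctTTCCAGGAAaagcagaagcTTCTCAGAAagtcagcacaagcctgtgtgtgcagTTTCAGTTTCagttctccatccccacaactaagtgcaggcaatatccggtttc
Gbp3, chr3:142559794-142560015: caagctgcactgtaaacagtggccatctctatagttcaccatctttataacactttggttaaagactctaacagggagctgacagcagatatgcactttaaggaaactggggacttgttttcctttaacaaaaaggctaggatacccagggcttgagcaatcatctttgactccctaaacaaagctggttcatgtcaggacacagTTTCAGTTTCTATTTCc
Gbp2, chr3:142620413-142620662: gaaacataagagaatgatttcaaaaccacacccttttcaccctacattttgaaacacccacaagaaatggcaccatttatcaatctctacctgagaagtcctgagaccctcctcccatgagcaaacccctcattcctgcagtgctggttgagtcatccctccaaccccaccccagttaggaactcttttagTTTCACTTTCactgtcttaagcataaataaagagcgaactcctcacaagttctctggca

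An ISRE core match was present in all 4 of these genes, against 3.46% of the 27025 genes with a 250-base window. The match began 59 bases before the start site in Gbp2, 53 in Gbp7 and 165 in Gbp5, and Gbp3 had 2 overlapping matches that began 45 and 39 bases before the start of the transcript its window was built on, which lies downstream of the first annotated start, where the printed sequence ends. Gbp3 has a second RefSeq window with no match to either core. GAS core matches were present in Gbp5 and Gbp7, with 2 each, and were not found in the Gbp2 and Gbp3 windows, against 8.13% of all genes with at least 1. Both cores in the same window, as in Gbp5 and Gbp7, occurred in 0.4% of genes. A match describes letters in a window and not binding.

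All 9 members were lower in tamoxifen tumors, and in each of them every tamoxifen value lay below every vehicle value. Summed over the 9 genes, the family measured 585, 1068, 779 and 1069 FPKM in vehicle replicates 1 to 4 and 345, 220, 307 and 301 FPKM in tamoxifen replicates 1 to 4 (FPKM: fragments scaled by transcript length and by library size; printed values are rounded). The lowest vehicle sum thus lay above the highest tamoxifen sum in FPKM as deposited. FPKM totals over all symbols ran from 899412 to 1661946 between libraries. Whether the groups stay apart after scaling to the same total was not tested. The means were 875 ± 237 and 293 ± 52.8 FPKM (SD, n = 4 each), a 2.99-fold difference.

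**Figure D1:**
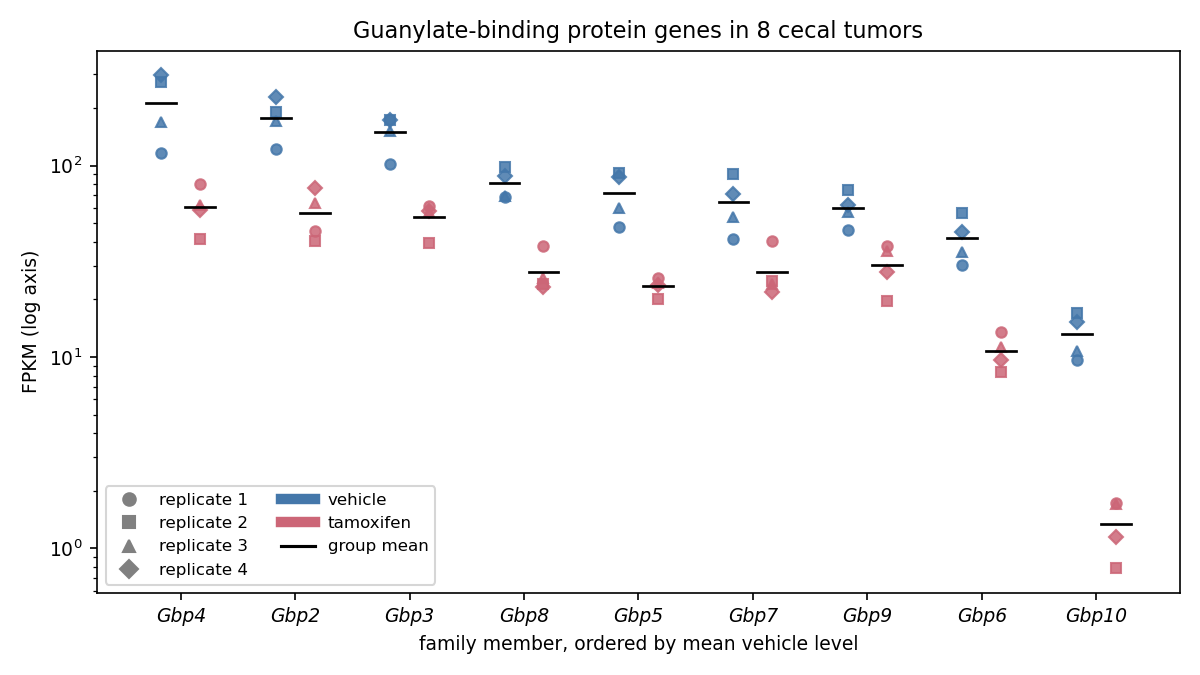
FPKM of the 9 members (log axis) in the 4 vehicle and 4 tamoxifen libraries, 1 symbol per replicate, with black lines at the group means. In every gene the tamoxifen points lie below the vehicle points, with the narrowest gap in Gbp7 (41.4 against 40.3 FPKM) and the widest in Gbp10 (9.69 against 1.72 FPKM).

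Gbp4, Gbp2 and Gbp3 were the most abundant members in both groups. Gbp4, whose protein has been described as an inhibitor of the antiviral factor Irf7, lies on chromosome 5 (ENSMUSG00000079363, 105544786 to 105568605). It measured 117, 273, 169 and 297 FPKM in vehicle replicates 1 to 4 and 80.5, 41.3, 62.0 and 58.6 FPKM in tamoxifen replicates 1 to 4. The vehicle tumors spread 2.55-fold, the widest range of any member in that group, and their lowest value was 1.45 times the highest tamoxifen value. The means were 214 ± 85.5 and 60.6 ± 16.1 FPKM, a 3.53-fold difference (log2 fold change of FPKM + 1, tamoxifen minus vehicle, -1.74, SE 0.32).

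Gbp2, a member with a lipid-anchored C-terminus that is recruited to parasite vacuoles, lies on chromosome 3 (ENSMUSG00000028270, 142283566 to 142300972). It measured 123, 192, 172 and 228 FPKM in the vehicle tumors and 45.8, 40.5, 63.9 and 76.5 FPKM in the tamoxifen tumors, in replicate order. Tamoxifen replicate 4 was the highest of its group for this gene alone; 8 of the 9 members peaked in tamoxifen replicate 1. The means were 178 ± 44.0 and 56.7 ± 16.6 FPKM (log2 fold change -1.65, SE 0.25).

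Gbp3, in the same cluster as Gbp2 (ENSMUSG00000028268, 142223016 to 142236173), measured 102, 174, 151 and 174 FPKM in the vehicle group and 61.3, 39.5, 57.3 and 58.2 FPKM in the tamoxifen group. Tamoxifen replicate 2 stood below the other 3, which lay within 57.3 to 61.3 FPKM. The means were 150 ± 34.0 and 54.1 ± 9.86 FPKM (log2 fold change -1.45, SE 0.21).

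The middle of the family held Gbp8, Gbp5, Gbp7 and Gbp9, at vehicle means between 60.1 and 81.2 FPKM. Gbp5 promotes assembly of the Nlrp3 inflammasome and also has a lipid anchor signal (chromosome 3, 142159864 to 142185308). It measured 48.1, 91.7, 60.4 and 86.9 FPKM in the vehicle group and 25.8, 20.2, 24.5 and 23.8 FPKM in the tamoxifen group. The tamoxifen tumors were close together, with a highest over lowest ratio of 1.28, the smallest of any member in that group. The means were 71.8 ± 21 and 23.5 ± 2.40 FPKM (log2 fold change -1.53, SE 0.21).

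Gbp8 (ENSMUSG00000034438, chromosome 5, 105443172 to 105482580) measured 68.5, 98.6, 69.1 and 88.4 FPKM in the vehicle group and 38.1, 24.2, 25.9 and 23.2 FPKM in the tamoxifen group. Tamoxifen replicate 1 was high and the other 3 were alike. The log2 fold change was -1.52 (SE 0.19).

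Gbp7 and Gbp9 showed the smallest differences. Gbp7, which has been linked to delivery of the phagocyte NADPH oxidase to vacuoles (ENSMUSG00000040253, chromosome 3, 142193302 to 142213047), measured 41.4, 90.7, 53.8 and 71.4 FPKM in the vehicle group and 40.3, 25.1, 24.1 and 21.8 FPKM in the tamoxifen group. Vehicle replicate 1 and tamoxifen replicate 1 were nearly equal, so the groups were separated by a ratio of 1.03 only. The means were 64.3 ± 21.5 and 27.8 ± 8.44 FPKM (log2 fold change -1.16, SE 0.27).

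Gbp9 (ENSMUSG00000029298, chromosome 5, 105507413 to 105539311) measured 46.4, 74.3, 57.4 and 62.3 FPKM in the vehicle group and 38.1, 19.6, 36.0 and 27.9 FPKM in the tamoxifen group. It had the smallest difference of the family, 1.98-fold between means of 60.1 ± 11.5 and 30.4 ± 8.44 FPKM (log2 fold change -0.98, SE 0.23). Its share of the summed family FPKM was 5.83% to 7.93% in vehicle and 8.93% to 11.7% in tamoxifen tumors.

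Gbp6 and Gbp10, at the far end of the chromosome 5 cluster, were the least abundant and showed the largest differences. Gbp6 (105699723 to 105722718) measured 30.1, 56.3, 35.3 and 45.2 FPKM in the vehicle group and 13.6, 8.31, 11.3 and 9.67 FPKM in the tamoxifen group. The lowest vehicle value was 2.22 times the highest tamoxifen value. The means were 41.7 ± 11.5 and 10.7 ± 2.26 FPKM (log2 fold change -1.85, SE 0.22).

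Gbp10 (ENSMUSG00000054588, 105643926 to 105668552) measured 9.69, 17, 10.8 and 15.3 FPKM in the vehicle group and 1.72, 0.787, 1.70 and 1.14 FPKM in the tamoxifen group. Its lowest vehicle value was 5.62 times its highest tamoxifen value, and its means differed 9.85-fold. On the log2(FPKM + 1) scale the change was -2.59 (SE 0.22). That scale understates the change of a gene near 1 FPKM: with a pseudocount of 0.1 FPKM the change of Gbp10 was -3.23, while the other 8 members moved by less than their spread between replicates.

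Gbp10 and Gbp6 are near copies, so their separate values are uncertain. Of all 50-base stretches in the longest protein-coding Gbp10 transcript of GENCODE M21, 70.6% also occur in Gbp6 transcripts and 79.2% in those of Gm43302, an adjacent gene model. For Gbp6 the shares were 62.3% with Gbp10 and 90.2% with Gm43302. The identifier that the deposited table pairs with Gbp6, ENSMUSG00000079362, belongs to Gm43302 in GENCODE M21, so which of these loci the Gbp6 row represents is not settled. The sources used here do not state how reads that fit several places were assigned. Over the other 7 members, the share of 50-base stretches found in any other gene ran from 0.898% in Gbp5 to 21.2% in Gbp8, and it was 2.07% in Gbp2 and 4.79% in Gbp3.

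Within the same library, Gbp10 was 0.322, 0.302, 0.305 and 0.339 of Gbp6 in vehicle replicates 1 to 4. In tamoxifen replicates 1 to 4 the ratio was 0.127, 0.0947, 0.150 and 0.118. The ratio was thus nearly constant in vehicle tumors and lower in every tamoxifen tumor. Gbp9 over Gbp8, a pair with little sequence in common (5.26% of Gbp9 stretches occur in Gbp8), went the other way, from 0.742 ± 0.0676 to 1.10 ± 0.252 (SD, n = 4 each), with vehicle replicate 3 (0.831) above tamoxifen replicate 2 (0.810). Gbp4 over Gbp2 did not separate the groups (1.17 ± 0.236 and 1.13 ± 0.434).

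**Figure D2:**
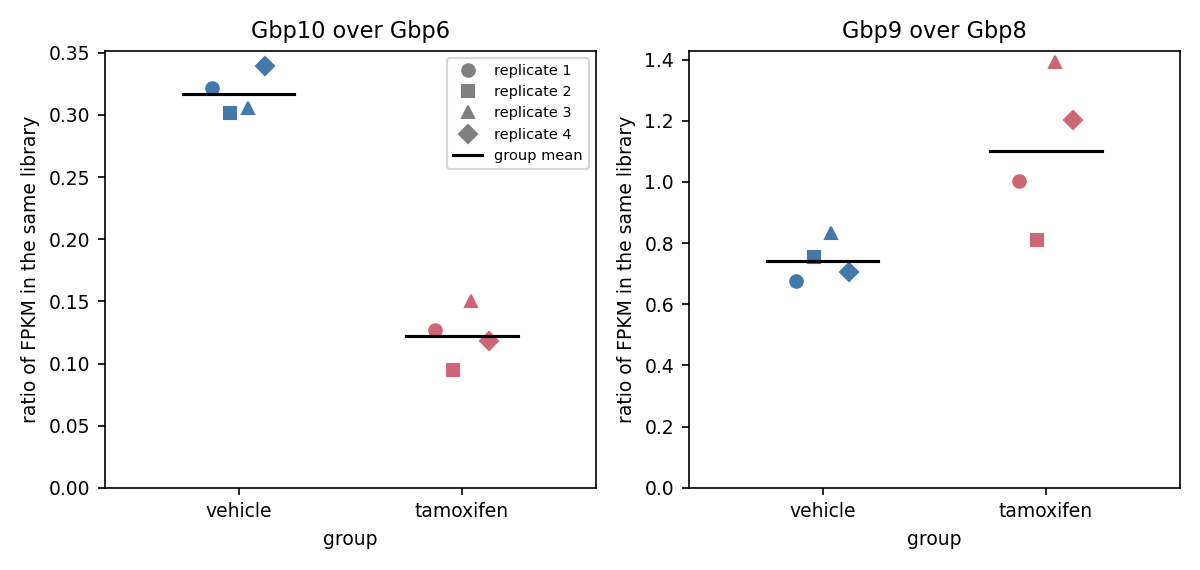
Ratio of FPKM within the same library for Gbp10 over Gbp6 (left) and Gbp9 over Gbp8 (right), 1 symbol per replicate, with black lines at the group means and axes from 0. The Gbp10 over Gbp6 ratio lies at 0.302 or above in vehicle and at 0.150 or below in tamoxifen libraries, while the Gbp9 over Gbp8 values overlap between groups.

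The order of levels was similar in both groups. In vehicle tumors it ran Gbp4, Gbp2, Gbp3, Gbp8, Gbp5, Gbp7, Gbp9, Gbp6 and Gbp10, and 3 of its 8 steps were larger than the larger SD of the 2 neighbours: Gbp3 to Gbp8, Gbp9 to Gbp6 and Gbp6 to Gbp10. Gbp4 exceeded Gbp2 in 2 of 4 vehicle and 2 of 4 tamoxifen tumors, so their order is not fixed. In tamoxifen tumors Gbp9 followed Gbp3 directly, ahead of Gbp8, Gbp7 and Gbp5, and the steps among these were all within the spread.

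Members varied together among tumors of a group. Vehicle replicate 1 had the lowest value of all 4 vehicle tumors for 9 of 9 members, and vehicle replicate 2 the highest for 7, with vehicle replicate 4 highest for Gbp2 and Gbp4. In the tamoxifen group, replicate 1 was highest for 8 members and replicate 2 lowest for 7. How many of all genes follow the same order was not counted, so whether these counts are particular to the family is not known. Summed over all symbols, FPKM ran from 899412 in the lowest library to 1661946 in the highest, and its part in this order was not tested. Etv1 was also lowest in replicate 1 (34.6 FPKM) and highest in replicate 2 (51.1 FPKM) of the vehicle tumors, and highest in replicate 1 of the tamoxifen tumors (34.9 FPKM), but its lowest tamoxifen value was in replicate 4 (17.4 FPKM). Etv1 itself, the gene the labels say was targeted, had means of 41.2 ± 7.03 FPKM (vehicle) and 25.8 ± 8.60 FPKM (tamoxifen), with overlapping values (limma adjusted p = 0.13), so its level does not separate the labels.

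**Figure D3:**
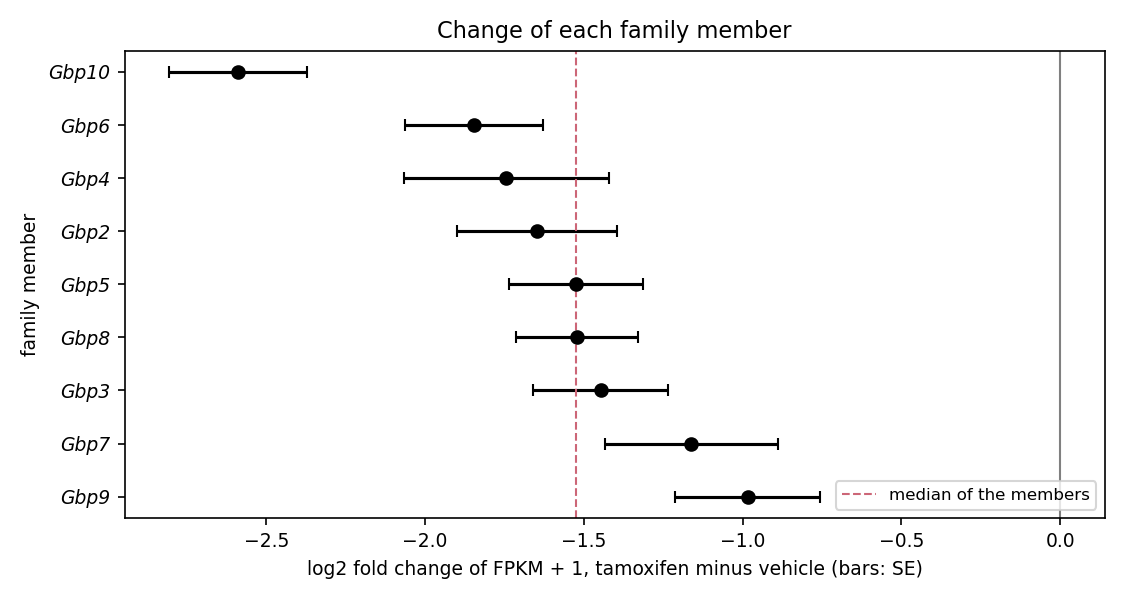
Log2 fold change of FPKM + 1, tamoxifen minus vehicle, for each member with its SE from the fit over all genes (n = 4 each), ordered from Gbp10 (-2.59) to Gbp9 (-0.98). All 9 points lie left of 0, and the dashed line marks their median of -1.53.

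In the fit over all genes (limma, 15023 genes tested), all 9 members were lower past an adjusted p of 0.05. Over all tested genes 3.07% were lower past that threshold, 5.45% passed in either direction and 7.74% had every tamoxifen value below every vehicle value. Nothing is read from these shares, since the members were chosen with this comparison known. The median log2 fold change was -1.53 over the members and 0.01 over all tested genes. It was -1.49 over the 4 members on chromosome 3 and -1.74 over the 5 on chromosome 5. Past-threshold calls depended on single libraries for Gbp4, Gbp7 and Gbp9. These 3 were not past it without vehicle replicate 2, 3 or 4 or tamoxifen replicate 2 (6 members past it each). Gbp9 alone was lost without vehicle replicate 1 or tamoxifen replicate 1 (8 past it), Gbp7 alone without tamoxifen replicate 3 (8 past it), and Gbp7 and Gbp9 without tamoxifen replicate 4 (7 past it). With no filter on low values, 7 were past it, again without Gbp7 and Gbp9. With the replicate number as a block in limma, 5 were past it, without Gbp3, Gbp4, Gbp7 and Gbp9. With all libraries brought to an equal FPKM total, 2 members stayed past it, Gbp6 and Gbp10, with log2 fold changes of the family still between -2.54 and -0.92. Over all genes that scaling gave 153 higher and 75 lower, against 358 higher and 461 lower as deposited.

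The numbers in the sample identifiers fall in 2 ranges, the lower with vehicle replicates 1 to 3 and tamoxifen replicates 1 and 2, the higher with vehicle replicate 4 and tamoxifen replicates 3 and 4. The median log2 fold change was -1.48 in the lower range and -1.81 in the higher, where it rests on 1 vehicle tumor. With the range as a covariate in limma, 7 of 9 members were past the threshold, without Gbp7 (adjusted p = 0.0652) and Gbp9 (0.0522).

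The relatives outside the chosen set had lower values too, and no call is given for them. Gbp1 (ENSMUSG00000028269, chromosome 3, 142257811 to 142282143), which RefSeq now calls Gbp2b, measured 62.6, 117, 40.0 and 48.3 FPKM in the vehicle group and 29.4, 24.5, 17.1 and 24.4 FPKM in the tamoxifen group. The log2 fold change of Gbp1 was -1.35 (SE 0.32). Unlike all members, it was lowest in replicate 3 of both groups. Gbp11 was low in all libraries, at 1.25 to 6.14 FPKM in vehicle and 0.664 to 1.13 FPKM in tamoxifen tumors. Its log2 fold change was -0.996 (SE 0.34), and the groups nearly touched. Gbp11 also shares sequence with members (10.5% of Gbp8 stretches of 50 bases occur in it).

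Upstream of the family, interferon signalling genes were compared by a list written with earlier results of these data known. Of 13 tested interferon gamma signalling genes, 3 fell and none rose, with 7 at an unadjusted p under 0.05 and a list median of -0.55. Over all tested genes 3.07% were lower past the same adjusted threshold. The ligand gene Ifng was too low to test, at 1.32, 1.08, 0.552 and 1.17 FPKM in the vehicle group and 0.538, 0.206, 0.567 and 0.971 FPKM in the tamoxifen group, so the groups overlap. Ifngr1, Jak2 and Irf1 are named for their place in the pathway and after their values were seen. The receptor gene Ifngr1 measured 88.5 ± 8.60 and 115 ± 20.8 FPKM (limma adjusted p = 0.23), and the kinase gene Jak2 15.3 ± 2.34 and 19.6 ± 1.63 FPKM (adjusted p = 0.15). Neither passed. Both means were higher in tamoxifen tumors, while 10 of the 13 tested genes of this list had a negative change. Irf1, a factor that acts on GBP promoters, measured 118 ± 71.8 and 73.1 ± 18 FPKM, with vehicle replicate 4 at 225 FPKM, and did not pass (adjusted p = 0.40). Nlrc5, an activator of MHC class I genes, fell from 69.9 ± 8.99 to 35.1 ± 3.75 FPKM (adjusted p = 0.0095). Ciita, the MHC class II activator, fell from 15.7 ± 7.15 to 4.55 ± 3.09 FPKM (adjusted p = 0.0497), a call lost without any 1 library other than tamoxifen replicate 4 (adjusted p = 0.0807 to 0.114). Batf2, an interferon-induced AP-1 family factor, measured 95.8 ± 60.5 and 31.6 ± 10.2 FPKM (adjusted p = 0.062). Batf2 passed in 2 of 17 alternatives, with a replicate block (limma adjusted p = 0.0381) and with the identifier range as a covariate (0.0096). Scaling to the same total FPKM ended the calls of Nlrc5 (0.165) and Ciita (0.065). The call of Ciita was also lost with no filter on low values (0.085), a filter at 5 FPKM (0.0521) and median-ratio scaling (0.0533). A replicate block in limma ended that of Nlrc5 (adjusted p = 0.0522).

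Of 8 type I interferon signalling genes 4 fell and none rose, with a median of -0.90 and 6 at an unadjusted p under 0.05. Irf7, which amplifies type I interferon production, had means of 505 ± 54.3 FPKM in vehicle and 161 ± 61.3 FPKM in tamoxifen tumors and fell by 1.72 on the log2 scale (SE 0.27, limma adjusted p = 0.013). Irf9, a DNA-binding partner of Stat2, fell from 78.8 ± 4.07 to 42.4 ± 5.17 FPKM (adjusted p = 0.0088). Stat2 fell from 71.2 ± 7.25 to 38.1 ± 8.94 FPKM (adjusted p = 0.025). Without vehicle replicates 2, 3 and 4 and tamoxifen replicates 1 and 2, in turn, the adjusted p of Stat2 was 0.0737, 0.0777, 0.0762, 0.0563 and 0.0569. The receptor chain Ifnar2 fell from 59.2 ± 6.02 to 43.0 ± 0.715 FPKM (adjusted p = 0.046), a call lost without any 1 of the 8 libraries (adjusted p = 0.0644 to 0.125). Scaling to the same total ended the calls of Irf9 (0.200), Stat2 (0.226) and Ifnar2 (0.624). Ifnar2 also missed the threshold with a filter at 5 FPKM (0.0508) and median-ratio scaling (0.0514). A replicate block in limma ended the calls of Stat2 (adjusted p = 0.0522) and Ifnar2 (0.107).

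The immunity-related GTPases (IRGs), a second interferon-induced GTPase family that acts with GBPs on vacuoles, were compared in the same way. Of 7 tested, 3 fell and none rose, with 6 at an unadjusted p under 0.05 and a median of -1.38. Igtp fell from 367 ± 101 to 106 ± 13.6 FPKM (limma adjusted p = 0.0074) and Irgm2 from 191 ± 49.6 to 69.5 ± 8.30 FPKM (adjusted p = 0.011). Tgtp2 fell from 124 ± 53.9 to 41.8 ± 10.3 FPKM (adjusted p = 0.046), a call lost without any 1 library other than vehicle replicate 1 (adjusted p = 0.0623 to 0.117), and it has a near copy in Tgtp1. Iigp1 measured 954 ± 373 and 352 ± 84.9 FPKM (adjusted p = 0.054). Iigp1 passed in 3 of 17 alternatives, without vehicle replicate 1 (limma adjusted p = 0.0196), with median-ratio scaling (0.0491) and with library quality weights (0.0400). The calls of Irgm2 (0.0892) and Tgtp2 (0.156) were lost with equal totals. That of Tgtp2 was also lost with no filter on low values (0.0758) and with the identifier range as a covariate (0.0602). A replicate block in limma ended the calls of Irgm2 (adjusted p = 0.0522) and Tgtp2 (0.0958).

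Genes that act with GBP proteins, and related GTPases, were compared next. None of 10 Atg8 conjugation genes, which help to bring GBPs to vacuoles, passed in limma, and none had an unadjusted p under 0.05 (median 0.03). Atg16l1 measured 22.8 ± 0.636 and 20.0 ± 2.28 FPKM and Gabarap 347 ± 28.8 and 378 ± 6.57 FPKM. None of 6 prenylation genes, whose enzymes attach the lipid anchor or process the protein end that carries it, passed in limma. Of these, 1 was at an unadjusted p under 0.05 (median -0.15). Rce1 measured 24.1 ± 1.14 and 20.1 ± 2.28 FPKM and Fntb 9.37 ± 1.81 and 7.62 ± 1.83 FPKM. None of 8 inflammasome genes passed in limma, and 0 had an unadjusted p under 0.05 (median -0.10). Gsdmd, the pore-forming gasdermin D, measured 50.9 ± 4.58 and 68.1 ± 18.5 FPKM and Nlrp3 1.64 ± 0.369 and 1.3 ± 0.774 FPKM. None of 7 related large GTPases passed in limma, with 3 at an unadjusted p under 0.05 (median -0.03). Among them Mx2, an interferon-induced dynamin relative, measured 11.4 ± 2.05 and 7.25 ± 1.07 FPKM (adjusted p = 0.071), and the atlastin Atl2 16.0 ± 2.69 and 22.2 ± 4.28 FPKM (adjusted p = 0.15). Mx2 passed in 1 of 17 alternatives, with library quality weights (limma adjusted p = 0.0417).

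**Figure D4:**
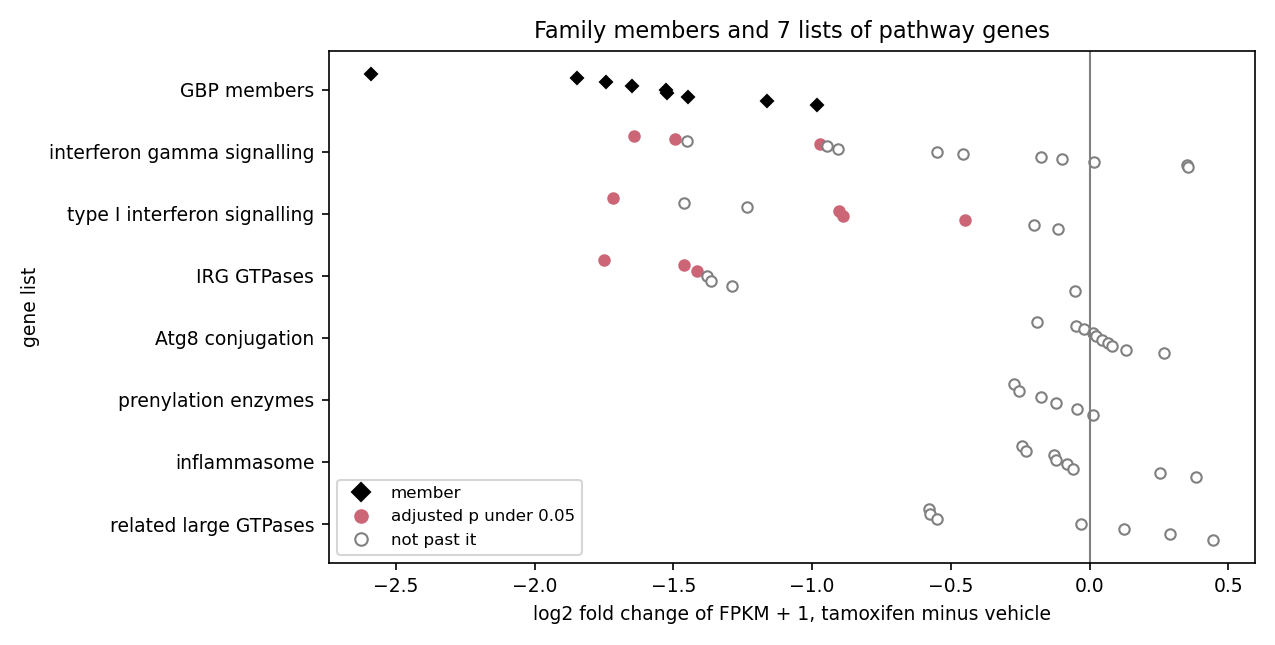
Log2 fold change of FPKM + 1, tamoxifen minus vehicle, for the 9 members (black diamonds) and for the tested genes of 7 pathway lists, with filled circles past a limma adjusted p of 0.05. Of 59 pathway genes 10 are filled, all left of 0 and all in the interferon gamma, type I interferon and IRG lists.

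Over the 7 lists, 10 of 59 tested genes fell and none rose. The count was 6 without any 1 of vehicle replicates 2, 3 and 4 or tamoxifen replicates 1 and 2, and 2 with scaling to the same total FPKM. Over all tested genes 3.07% were lower past the threshold and 5.45% passed in either direction. The lists were written with earlier results of these data known, so nothing is read from these shares.

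The genes whose pattern over the 8 libraries was most like that of the family were found by the root-mean-square difference between log2(FPKM + 1) profiles centred on their own means, among 10039 named genes at 5 FPKM or more. The closest was Igtp, at 0.167 log2 units from the mean profile of the members. Next came Irgm2 (0.173), Ifit3 (0.182), Ifi44 (0.209), Herc6 (0.210), Tacr1 (0.211) and Hopx (0.233). All of these other than Tacr1 and Hopx are interferon-induced. The profiles span both groups, so a gene with a group difference like that of the members ranks as close. The log2 fold changes of these genes lay between -1.75 (Igtp) and -1.37 (Herc6). Since the members were chosen with that difference known, the list is a description only. Tacr1, the substance P receptor gene, measured 23.1, 28.6, 29.1 and 32.7 FPKM in the vehicle group and 10.8, 8.98, 11.3 and 9.27 FPKM in the tamoxifen group. Hopx, a homeodomain cofactor, measured 29.1, 40.5, 29.5 and 44.5 FPKM in the vehicle group and 14.1, 10.3, 9.75 and 15.8 FPKM in the tamoxifen group. For scale, each member's own distance from the mean of the other 8 ran from 0.102 (Gbp5) to 0.559 (Gbp10).

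Markers of several cell types differed between the same groups, and their part in the GBP difference was not tested. Over all tested genes 3.07% were lower past the threshold and 5.45% passed in either direction. Of 10 T and NK cell markers 7 fell, with 9 at an unadjusted limma p under 0.05. Their summed level was 204 to 288 FPKM in vehicle and 103 to 139.5 FPKM in tamoxifen tumors. Cd3e, a T cell receptor subunit, fell from 19.5 ± 2.94 to 8.38 ± 0.475 FPKM (limma adjusted p = 0.0065) and the cytotoxic granule gene Nkg7 from 49.9 ± 6.36 to 18.8 ± 4.18 FPKM (0.0074). Of 6 dendritic cell markers 3 fell (5 at an unadjusted limma p under 0.05), with a summed level of 34.6 to 48.5 against 12.7 to 18.8 FPKM. Batf3, a factor of cross-presenting dendritic cells, fell from 15.8 ± 3.07 to 3.91 ± 1.03 FPKM (0.0065) and the receptor gene Clec9a from 9.73 ± 2.78 to 1.99 ± 0.919 FPKM (0.010). None of 6 macrophage markers passed in limma (1 at an unadjusted p under 0.05), at a summed 354 to 492 against 282 to 660.0 FPKM. Endothelial markers went the other way: 3 of 6 rose (6 at an unadjusted limma p under 0.05), at a summed 43.2 to 56.6 against 72.6 to 99.8 FPKM. Emcn rose from 11.8 ± 0.931 to 23.7 ± 4.97 FPKM (adjusted p = 0.017; 0.0586 and 0.0569 without vehicle replicates 3 and 4), and Pecam1 from 17.6 ± 3.48 to 29.8 ± 3.29 FPKM (0.033; 0.0691, 0.0825, 0.102, 0.0819, 0.0544 and 0.0610 without vehicle replicates 1 to 3 and tamoxifen replicates 2 to 4). Scaling to the same total FPKM ended the calls of Emcn (0.0957) and Pecam1 (0.168), and leaving low values unfiltered ended that of Pecam1 (0.0507). A replicate block in limma ended the calls of Emcn (adjusted p = 0.062) and Pecam1 (0.0774). Of 5 tested neutrophil markers 4 rose, at a summed 7.27 to 27.4 against 179.7 to 469.7 FPKM. Ly6g rose from 1.96 ± 1.79 to 147 ± 33.0 FPKM (0.0022) and S100a8 from 5.42 ± 2.87 to 108 ± 79.8 FPKM (0.014). Of 6 epithelial markers 1 rose past the threshold, at a summed 288 to 492 against 573 to 1429 FPKM. None of the 6 had a negative change, and 5 were at an unadjusted limma p under 0.05 (median 0.88). Krt18 rose from 24.4 ± 5.91 to 79.0 ± 45.6 FPKM (0.039), a call lost without vehicle replicates 1 to 4 (0.0709, 0.0977, 0.109 and 0.0776) and tamoxifen replicates 1 and 2 (0.0699 and 0.0614), and with no filter on low values (0.0666), while Krt20 measured 78.0 ± 34.8 and 198 ± 83.4 FPKM (0.061). The tumor lineage genes checked against the label were abundant in every library, at a summed 1154 to 1715 FPKM for Kit, Ano1, Etv1, Gpr20 and Prkcq in vehicle and 919.9 to 1309 FPKM in tamoxifen tumors, and none of the 5 passed in limma (3 at an unadjusted p under 0.05). No marker of these lists was at 0 in all libraries.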

How the data were processed

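RNA sequencing of 8 tumors was used, with groups and replicate numbers from the sample titles. The authors deposited gene-level FPKM with a status per value, per the file headers. The submitters' processing notes name STAR 2.3, Cufflinks, Cuffdiff and mm9. The sources used here state no strandedness, read number or rule for shared reads, so depth is unknown. Failed values (178) were treated as missing and rows with 1 symbol were summed. Genes with a mean of at least 1 FPKM and at least 2 estimates per group were tested on log2(FPKM + 1) with limma 3.58.1 in R 4.3.3 (lmFit, eBayes with trend, 2-sided, Benjamini-Hochberg over 15023 genes, threshold 0.05). The procedure was run on simulated data with independent noise per gene. These data held no scale differences between libraries, so effects of such differences were not tested. Libraries had 14176 to 14841 symbols at 1 FPKM or more. Starts are counted from 1.

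Members, lists and tests were chosen with earlier results of these data known. Named genes were the members, other Gbp symbols, Etv1, the smallest p-values of each list (4 or 2 genes) and the 8 genes most like the family (predicted or clone-named genes left out). A gene that this rule names is not reported here, though list counts and medians include it. Shared 50-base stretches were counted on the sense strand of GENCODE M21 transcripts. In that release the deposited identifier of Gbp5 (ENSMUSG00000040264) belongs to Gbp2b, while its position before Gbp7 is that of Gbp5, and the identifiers of Gbp1 and Gbp10 are absent. Alternatives were other pseudocounts, filters and scalings, a replicate block, an identifier covariate, quality weights and leaving out each library.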

Additional observations from a re-analysis of the deposited data

Results flagged for a closer look

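The values here lay apart from the other 3 of their group, by the share of the group's range that the gap to the nearest value takes on the log2(FPKM + 1) scale (Dixon's ratio, above its 95% critical value for 4 values). A total of 84 groups of 4 were examined and 8 were named, where chance names about 1 in 20.

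Of the members, Gbp3 alone was named, with tamoxifen replicate 2 low at 39.5 FPKM (share 0.846). The others were genes set beside the family. Batf2 was high in vehicle replicate 4 (186 FPKM, 0.842), Rce1 in vehicle replicate 1 (25.8 FPKM, 0.882) and Emcn in vehicle replicate 2 (13.2 FPKM, 0.857). Among tamoxifen libraries, Atg16l1 was high in replicate 3 (23.4 FPKM, 0.908), Atl2 in replicate 1 (28.6 FPKM, 0.867) and Krt18 in replicate 4 (147 FPKM, 0.870), and Ly6g was low in replicate 3 (97.9 FPKM, 0.865).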

How the results depend on the processing

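Over 17 alternatives, 0 of 153 log2 fold changes of the members changed sign, and 2, those of Gbp10 with pseudocounts of 0.1 and 0.25 FPKM (-3.23 and -3.09), moved by more than the spread between replicates. Counts past the threshold moved more. Scaling to the same total FPKM gave 228 genes, 2 members and 2 pathway genes, against 819, 9 and 10. The replicate block gave 252, 5 and 6. A filter at 5 FPKM gave 534 genes. Leaving out 1 library gave 268 to 856 genes, 6 to 8 members and 6 to 11 pathway genes; the gene count was 450, 288, 268 and 274 without vehicle replicates 1 to 4, and 544 and 378 without tamoxifen replicates 1 and 2. The causes were not tested. The deviations of same-numbered libraries correlated at -0.157, -0.0021, 0.145 and 0.0629 over 14975 genes. Not every library correlated best with its own number. Such weak values do not settle whether the replicate numbers pair the samples. No named pathway or marker gene changed direction under these alternatives. Depth cannot be read from FPKM, so no limit for low genes such as Gbp10 and Ifng is given.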

Other observations

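The level of Gbp1 relative to its neighbour Gbp2 differed between tumors in a way that did not follow the groups. Gbp2 over Gbp1 was 1.96 and 1.64 in vehicle replicates 1 and 2 and 1.56 and 1.65 in tamoxifen replicates 1 and 2. It was 4.3 and 4.72 in vehicle replicates 3 and 4 and 3.73 and 3.13 in tamoxifen replicates 3 and 4. The first 4 of these tumors also have the 4 lowest numbers in the sample identifiers. The split was noticed after the values were seen and was not tested. It did not follow Xist, a transcript of female cells, which was 0.184 to 0.44 FPKM in vehicle replicates 1 and 4 and tamoxifen replicates 1 and 2 and 245 to 322 FPKM in the other 4 tumors. Gbp2 and Gbp1 share 2.07% of the 50-base stretches of Gbp2 (with Gbp2b, the current name of Gbp1).

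Irgm1, an IRG gene that regulates the other members of that family, had estimates in 1 of 4 vehicle libraries (214 FPKM) and in all 4 tamoxifen libraries (183, 114, 139.5 and 153 FPKM), so it entered no comparison. It is named after its values were seen.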
